A study of Mus musculus with 4 samples.

Results

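Platelet-derived growth factors, vascular endothelial growth factors and insulin-like growth factor 1 are secreted proteins that act on stroma and vessels, and 8 of their genes were followed across sorted thymic cells: the PDGF ligands Pdgfa, Pdgfb and Pdgfc, the PDGF receptors Pdgfra and Pdgfrb, the VEGF genes Vegfa and Vegfb, and Igf1. The 8 genes were chosen by symbol, out of 55418 gene entries in the count tables, and each symbol matched 1 entry. PDGF ligands form disulfide-linked dimers that bring receptor chains together, and they are known for supporting fibroblasts and the mural cells that wrap capillaries. VEGF-A drives the growth of blood vessels through receptors on endothelial cells, and IGF1 acts through a receptor tyrosine kinase while binding proteins hold it in tissue fluid. In the thymus, PDGF receptors are known as markers of the mesenchymal cells of the capsule and septa.

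The study sequenced single thymic cells from MaFIA mice, whose genotype is Csf1r-EGFP-NGFR/FKBP1A/TNFRSF6 (a Csf1r promoter drives EGFP and an inducible death receptor), and from CD11c-YFP mice, which carry Itgax-Venus (a CD11c promoter drives a yellow fluorescent protein). MaFIA mice were 5 weeks old and CD11c-YFP mice 9 weeks old, both on C57BL/6, and the methods name 1 female MaFIA mouse and 2 male CD11c-YFP mice, so reporter, age and sex cannot be told apart. Cells were released with collagenase P and DNase I, enriched on Percoll, and sorted for EGFP or YFP, so shares of cells reflect the sort and not the whole thymus. MaFIA replicate 2 and CD11c-YFP replicates 1 and 2 gave 23549 cells after filtering. Their deposited barcodes had medians between 15759 and 17493 unique molecular identifiers (UMIs, one per captured transcript) before any filter. MaFIA replicate 1 had a median of 3980.5 and enters only as a whole library and in an alternative clustering. Any pair of the 4 libraries shared between 9 and 23 cell barcodes. The labels do not tie each library to a separate mouse, so p-values measure only the spread between these libraries.

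Cells were clustered without the 8 genes and their pathway genes, and clusters were named from marker genes, so every name below stands for cells like that type. The 11 classes were Cx3cr1+ macrophages (1958 cells), Timd4+ macrophages (910), monocytes (1351), Ccr7+, Xcr1+ and Cd209a+ dendritic cells or DCs (4739, 4885 and 3315), plasmacytoid DCs or pDCs (1273), B cells (3202), thymocytes (1198), thymic epithelial-like cells (57) and fibroblast-like cells (95), with 566 cells (2.40%) unnamed. An unnamed cluster of 37 cells (1, 19 and 17 in MaFIA replicate 2, CD11c-YFP replicate 1 and CD11c-YFP replicate 2) scored best as fibroblast but was led by Pth and Chga, and was kept out of the class by a rule added after the clusters were seen. Of 58 naming markers, 55 were highest in their own class, the exceptions being Ly6c2 and Plac8 for monocytes and Clec10a for Cd209a+ DCs. Fibroblast-like cells were few in every library: 6 in MaFIA replicate 2, 50 in CD11c-YFP replicate 1 and 39 in CD11c-YFP replicate 2. A class sum needed 10 cells to enter a fit, so tests on fibroblast-like cells rest on the 2 CD11c-YFP libraries.

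The results turn on genes that differed between neighbouring myeloid populations, and the 250 bases upstream of the annotated start of Pdgfa, Pdgfc, Igf1 and Vegfa are printed here as examples of genes that differed among the macrophages and monocytes. Vegfb also differed there and had a window, which is not printed. The sequences are from RefSeq on GRCm38.p6 and read 5′ to 3′ on the gene's strand. Capitals mark GAGGAA or its reverse complement TTCCTC, the core of the PU box that the myeloid factor PU.1 is known to bind. The Pdgfa window is chr5:138994945-138995194 (minus strand), that of Pdgfc chr3:81036166-81036415 (plus), that of Igf1 chr10:87860861-87861110 (plus) and that of Vegfa chr17:46032378-46032627 (minus).
Pdgfa: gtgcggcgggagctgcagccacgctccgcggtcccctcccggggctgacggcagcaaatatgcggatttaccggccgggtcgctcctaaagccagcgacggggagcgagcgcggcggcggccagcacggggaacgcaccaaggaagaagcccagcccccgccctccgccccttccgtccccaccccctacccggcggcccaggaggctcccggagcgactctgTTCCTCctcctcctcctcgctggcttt
Pdgfc: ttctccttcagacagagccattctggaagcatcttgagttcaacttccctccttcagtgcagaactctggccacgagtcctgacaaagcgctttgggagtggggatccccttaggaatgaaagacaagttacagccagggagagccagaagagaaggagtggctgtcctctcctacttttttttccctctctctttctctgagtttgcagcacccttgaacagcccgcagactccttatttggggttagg
Igf1: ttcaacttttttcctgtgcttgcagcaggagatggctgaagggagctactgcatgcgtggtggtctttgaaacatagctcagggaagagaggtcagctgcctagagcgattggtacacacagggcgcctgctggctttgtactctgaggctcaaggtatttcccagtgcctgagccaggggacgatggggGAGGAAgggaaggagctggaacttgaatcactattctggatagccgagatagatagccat
Vegfa: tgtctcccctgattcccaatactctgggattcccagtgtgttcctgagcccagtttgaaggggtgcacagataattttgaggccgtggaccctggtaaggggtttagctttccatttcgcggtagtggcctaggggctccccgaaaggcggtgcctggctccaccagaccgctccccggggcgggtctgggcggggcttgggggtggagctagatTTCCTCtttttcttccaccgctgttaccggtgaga
Pdgfa, Igf1 and Vegfa each held 1 match and Pdgfc held 0, and 7639 of all 32851 windows of this length (23.3%) held at least 1. The motif was searched on both strands. A match is a description of the letters only.

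In the annotation of the current mouse build GRCm39, Pdgfa lies on chromosome 5 from 138961758 to 138983435 (minus strand) and Pdgfra on the same chromosome from 75311994 to 75358876 (plus). Pdgfb lies on chromosome 15 from 79880009 to 79899181 (minus), Pdgfc on chromosome 3 from 80943668 to 81121473 (plus), Pdgfrb on chromosome 18 from 61178212 to 61218133 (plus), Vegfa on chromosome 17 from 46327919 to 46343309 (minus), Vegfb on chromosome 19 from 6958447 to 6965127 (minus) and Igf1 on chromosome 10 from 87693642 to 87772904 (plus). All 8 are protein-coding genes.

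Levels below are in CPM, with the UMIs of a gene summed over the cells of a class in 1 library, divided by all UMIs of those cells and scaled as in the usual CPM unit. Values of 3 libraries are always given as MaFIA replicate 2, CD11c-YFP replicate 1 and CD11c-YFP replicate 2. Shares of cells with a UMI were read after thinning every cell to 3000 UMIs, and the share in B cells was used as a reference for background. Free RNA itself was not measured. UMIs were captured at 3' ends and were not set per length, so levels of different genes are not compared.

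**Figure D1:**
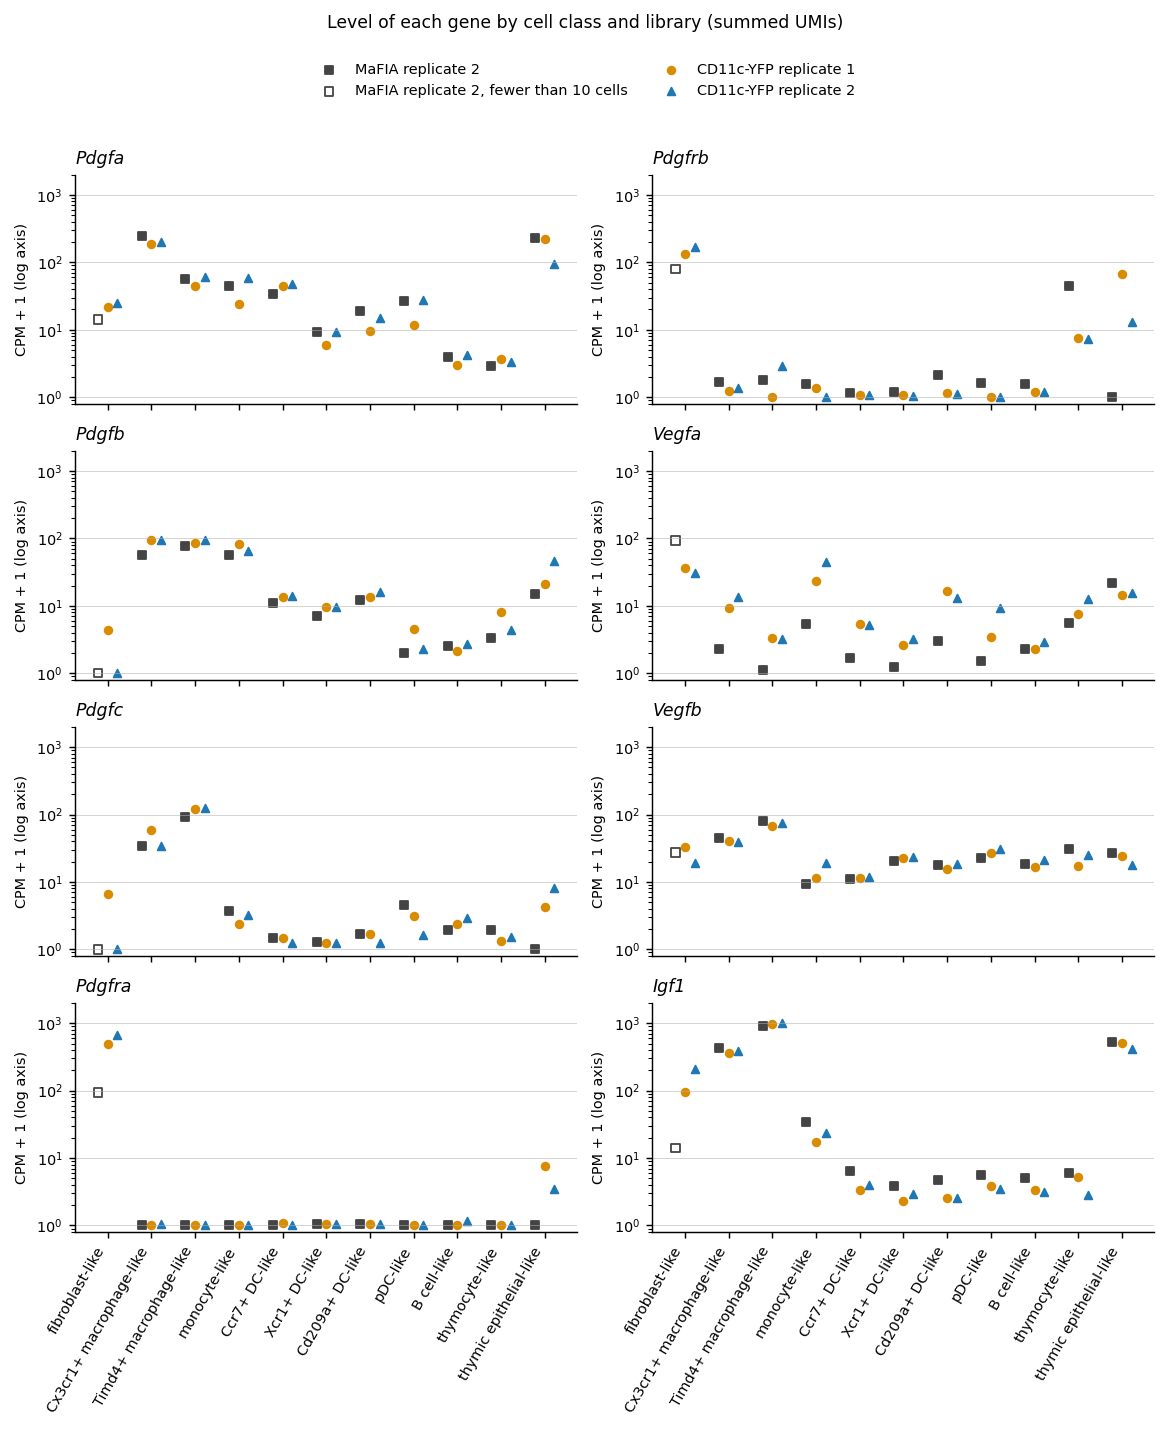
Level of each of the 8 genes (CPM + 1, log axis) in 11 cell classes, 1 point for each of 3 libraries (open squares, a class with fewer than 10 cells). Pdgfc stands out in both macrophage classes, and Igf1 is high in both and in thymic epithelial-like cells. Pdgfra is high in fibroblast-like cells and low or near 0 in every other named class. Pdgfrb is highest in fibroblast-like cells, with lower levels in thymic epithelial-like cells and thymocytes.

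Pdgfa, which encodes the PDGF-A chain that binds the alpha receptor, had its highest class mean in Cx3cr1+ macrophages, with a range that overlapped that of thymic epithelial-like cells. It stood at 245, 188 and 198 CPM in Cx3cr1+ macrophages, against 55.1, 43.6 and 59.2 CPM in Timd4+ macrophages. The ranges did not overlap, and every library showed the same order. By the edgeR quasi-likelihood test with the library as a block, Pdgfa was 4.50-fold higher (2.17 on the log2 scale, SE 0.20, adjusted p = 5.1e-05). Split by their own Timd4 and Cx3cr1 UMIs rather than by cluster, the macrophages differed by 1.21 on the log2 scale (adjusted p = 0.0012). Monocytes held 44.3, 22.9 and 58.1 CPM, also below Cx3cr1+ macrophages in every library (log2 fold change of Cx3cr1+ macrophages over monocytes 2.29, SE 0.20, adjusted p = 8.1e-05). Timd4+ macrophages and monocytes overlapped in their ranges and did not pass the test against each other (0.12, SE 0.20, adjusted p = 0.64). That last comparison passed under the same split (0.89, adjusted p = 0.0047).

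With 3000 UMIs per cell, 40.7% ± 5.32 of Cx3cr1+ macrophages had a Pdgfa UMI (SD, n = 3), against 12.6% ± 2.34 of Timd4+ macrophages, 8.603% ± 4.20 of monocytes and 0.594% ± 0.352 of B cells. Cx3cr1+ macrophages supplied 63.0%, 52.5% and 48.6% of all Pdgfa UMIs of named cells in the 3 libraries. In macrophages split by their own UMIs, Pdgfa averaged 188 ± 26.8 CPM with Cx3cr1 alone, 188 ± 60.5 with both genes, 182 ± 16.5 with neither and 87.4 ± 11.1 with Timd4 alone. Cells with Timd4 alone were thus the low group, and the other 3 groups overlapped.

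Outside the macrophages, Pdgfa was also high in thymic epithelial-like cells (228, 219 and 92.1 CPM) and moderate in Ccr7+ DCs, the mature migratory DCs (33.0, 43.7 and 46.4 CPM). Within Ccr7+ DCs the 3 clusters differed in every library. One held 72.8, 76.7 and 87.4 CPM, the next 34.9, 34.3 and 34.1 CPM, and the lowest 14.7, 16.1 and 19.4 CPM, with no overlap. Xcr1+ DCs, B cells and thymocytes averaged 7.11, 2.72 and 2.29 CPM.

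Pdgfc, whose product must be cut by a protease before it binds the alpha receptor, was found almost wholly in macrophages and was higher in the Timd4+ population. Cx3cr1+ macrophages had 33.6, 57.3 and 33.0 CPM, against 91.1, 121 and 123 CPM in Timd4+ macrophages. The ranges did not overlap. Relative to Timd4+ macrophages, Pdgfc fell in Cx3cr1+ macrophages by 1.31 on the log2 scale (SE 0.19, adjusted p = 0.00069, edgeR), a direction opposite to that of Pdgfa. Monocytes held 2.65, 1.34 and 2.22 CPM, and both macrophage populations were above them in all 3 libraries (4.28, SE 0.29, for Cx3cr1+ macrophages and 5.59, SE 0.28, for Timd4+ macrophages, adjusted p = 2.8e-05 and 1.3e-06).

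No class other than the macrophages averaged more than 3.53 CPM of Pdgfc. Together the macrophages were 16.3%, 11.3% and 10.9% of named cells and held 92.0%, 93.4% and 91.9% of Pdgfc UMIs. With 3000 UMIs per cell, 11.6% ± 4.52 of Cx3cr1+ macrophages and 29.98% ± 2.45 of Timd4+ macrophages had a UMI. Monocytes, at 0.847% ± 1.04, did not stand clear of B cells at 0.676% ± 0.247, so monocyte Pdgfc was not distinguishable from the B cell level at this depth. Cells with both Timd4 and Cx3cr1 UMIs lay between the single groups, at 70.6 ± 28.8 CPM, with a range that overlapped those of cells with Cx3cr1 alone (42.9 ± 12.5 CPM) and Timd4 alone (114 ± 23.1 CPM).

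**Figure D2:**
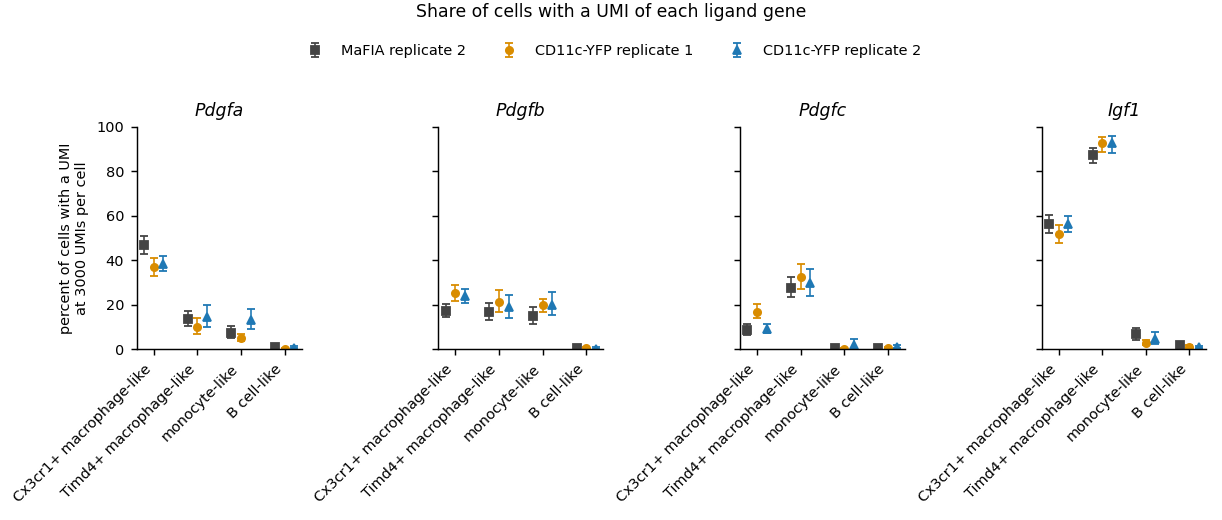
Percent of cells with at least 1 UMI of Pdgfa, Pdgfb, Pdgfc and Igf1 at 3000 UMIs per cell in 4 classes, for each library (error bars, exact 95% binomial intervals, counting error only). Of these classes, Pdgfa is highest in Cx3cr1+ macrophages, Pdgfc and Igf1 are highest in Timd4+ macrophages, and Pdgfb overlaps among the macrophages and monocytes.

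Pdgfb, the B chain that binds both receptors and is known for recruiting pericytes, was shared by the macrophages and monocytes. It stood at 55.7, 95.2 and 93.1 CPM in Cx3cr1+ macrophages and 75.4, 84.0 and 92.8 CPM in Timd4+ macrophages. Monocytes held 54.9, 81.8 and 63.6 CPM, and the 3 ranges overlapped. No pair among them passed the test, with log2 fold changes of 0.07 (SE 0.14, adjusted p = 0.73) for Cx3cr1+ over Timd4+ macrophages, 0.14 (SE 0.14, adjusted p = 0.46) for Cx3cr1+ macrophages over monocytes and 0.07 (SE 0.14, adjusted p = 0.71) for Timd4+ macrophages over monocytes. Thymic epithelial-like cells came next at 26.7 ± 17.0 CPM (SD, n = 3), and the conventional DCs averaged between 7.77 and 13.03 CPM. MaFIA replicate 2 was the lowest of the 3 libraries for Pdgfb in 9 of the 10 classes other than fibroblast-like cells.

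Igf1, which encodes insulin-like growth factor 1, was found in most Timd4+ macrophages. Cx3cr1+ macrophages had 425, 358 and 387 CPM, against 906, 959 and 1009 CPM in Timd4+ macrophages. The populations did not overlap, and Igf1 fell in Cx3cr1+ macrophages by 1.16 on the log2 scale relative to Timd4+ macrophages (SE 0.17, adjusted p = 0.00080, edgeR). Monocytes had 33.8, 16.2 and 22.4 CPM, below both in every library. The log2 fold change over monocytes was 3.92 (SE 0.20, adjusted p = 9.5e-06) for Cx3cr1+ macrophages and 5.08 (SE 0.21, adjusted p = 5.4e-07) for Timd4+ macrophages.

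At 3000 UMIs per cell, 54.9% ± 2.63 of Cx3cr1+ macrophages and 90.8% ± 3.01 of Timd4+ macrophages had an Igf1 UMI (SD, n = 3), with 4.66% ± 1.90 of monocytes and 1.24% ± 0.509 of B cells. The macrophages together held 94.3%, 93.1% and 92.9% of Igf1 UMIs of named cells. Split by their own UMIs, macrophages with both Timd4 and Cx3cr1 held 738 ± 107.0 CPM of Igf1, between cells with Timd4 alone (946 ± 63.8) and cells with Cx3cr1 alone (379 ± 29.0), and the 3 ranges did not overlap. Pdgfa and Igf1 were found together in single Cx3cr1+ macrophages about as often as their separate shares multiply to, in 28.4%, 18.6% and 22.4% of cells, where the products are 26.4%, 19.16% and 21.6%. In Timd4+ macrophages the joint shares were 10.7%, 9.64% and 13.2%, and the products 11.7%, 9.25% and 13.4%.

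Vegfb, a VEGF gene linked to lipid handling and vessel survival more than to vessel growth, followed the order of Igf1 and Pdgfc. It stood at 44.0, 39.7 and 38.5 CPM in Cx3cr1+ macrophages, against 80.3, 65.6 and 73.2 CPM in Timd4+ macrophages. The ranges did not overlap, and Vegfb fell by 0.69 on the log2 scale (SE 0.18, adjusted p = 0.015, edgeR), a call that was lost without CD11c-YFP replicate 1 (-0.76, adjusted p = 0.074). Monocytes had 8.24, 10.6 and 18.2 CPM, below both (1.65, SE 0.21, adjusted p = 0.00046, and 2.34, SE 0.21, adjusted p = 2.4e-05, for Cx3cr1+ and Timd4+ macrophages over monocytes). Unlike the other ligands, Vegfb had a broad floor, since B cells held a UMI in 4.47% ± 0.582 of cells at 3000 UMIs and the lowest class mean, in Ccr7+ DCs, was 10.5 CPM. Monocytes, with a UMI in 3.15% ± 0.458 of cells, did not stand above B cells.

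Vegfa, the main vessel-forming VEGF gene, ran the other way. Cx3cr1+ macrophages had 1.26, 8.17 and 12.7 CPM and Timd4+ macrophages 0.128, 2.29 and 2.22 CPM. Monocytes had 4.41, 22.1 and 44.4 CPM. Within each library the order was monocytes, Cx3cr1+ macrophages, Timd4+ macrophages, although the ranges overlapped across libraries, with MaFIA replicate 2 low in all 3 populations. With the library as a block, the log2 fold changes were 2.39 (SE 0.28, adjusted p = 0.00022) for Cx3cr1+ over Timd4+ macrophages, -1.78 (SE 0.17, adjusted p = 0.00013) for Cx3cr1+ macrophages over monocytes and -4.17 (SE 0.26, adjusted p = 2.9e-06) for Timd4+ macrophages over monocytes. Without the block, Cx3cr1+ macrophages no longer passed against Timd4+ macrophages (2.67, adjusted p = 0.145) or monocytes (-1.77, adjusted p = 0.18). Timd4+ macrophages, with a UMI in 0.411% ± 0.441 of cells at 3000 UMIs, were not separable from B cells at 0.282% ± 0.0211. Whether their Vegfa is free RNA was not tested.

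**Figure D3:**
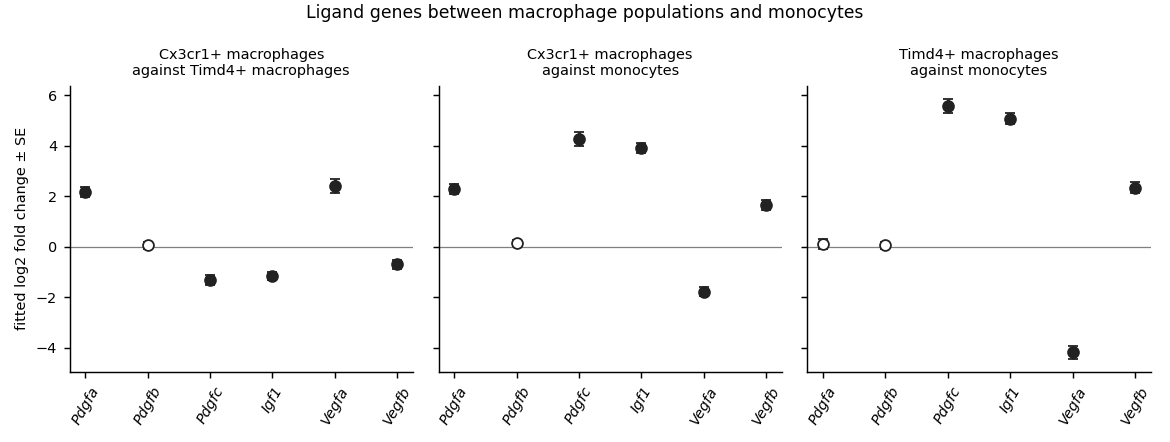
Fitted log2 fold changes ± SE of the 6 tested genes for Cx3cr1+ over Timd4+ macrophages, Cx3cr1+ macrophages over monocytes and Timd4+ macrophages over monocytes (filled, adjusted p under 0.05). Pdgfa and Vegfa point up and Pdgfc, Igf1 and Vegfb down in the first panel, and Pdgfb lies near 0 in all 3.

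Counted together, 5 of the 6 genes tested between Cx3cr1+ and Timd4+ macrophages passed an adjusted p of 0.05, where 38.9% of all genes tested did. The same 6 gave 5 calls for Cx3cr1+ macrophages against monocytes (all genes 37.5%) and 4 for Timd4+ macrophages against monocytes (all genes 54.0%). Pdgfra and Pdgfrb were too low in these populations to be tested. These comparisons share populations and are not independent of each other. Under CPM alone the median gene was shifted by -0.14, 0.12 and 0.25 on the log2 scale in the 3 comparisons, and by -0.01, 0.00 and 0.01 with the fitted scaling, so the fold changes above are relative to the median gene.

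In most classes, Vegfa and a set of 6 early-response genes were both lowest in MaFIA replicate 2. Cells are known to switch on these genes (Fos, Jun, Egr1, Atf3, Ier2 and Nr4a1) soon after a stimulus. The list was chosen after the values of its genes were seen. Over the 10 classes other than fibroblast-like cells, their summed level ran between 89.2 and 517 CPM in MaFIA replicate 2, 709.8 and 3822 CPM in CD11c-YFP replicate 1, and 938 and 4303 CPM in CD11c-YFP replicate 2. MaFIA replicate 2 was the lowest library for Vegfa in 8 of these 10 classes. Between CD11c-YFP replicates 1 and 2 the 2 measures did not move together. The median early-response sum of these classes was 1865 and then 2789 CPM, while Vegfa over the whole library was 7.43 and then 6.48 CPM. In monocytes of CD11c-YFP replicate 2, cells with a Vegfa UMI at 3000 UMIs had a mean of 17.5 early-response UMIs (30 cells), against 12.8 in cells without one (219 cells). The means were 12.8 (38 cells) against 11.5 (689 cells) in CD11c-YFP replicate 1 and 2.60 (5 cells) against 1.77 (370 cells) in MaFIA replicate 2. Fibroblast-like cells ran the other way, with early-response sums of 633, 4907 and 5564 CPM and Vegfa at 92.2, 35.3 and 29.7 CPM, the first value being from 7 UMIs in 6 cells. The part of these genes in the Vegfa values was not tested.

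**Figure D4:**
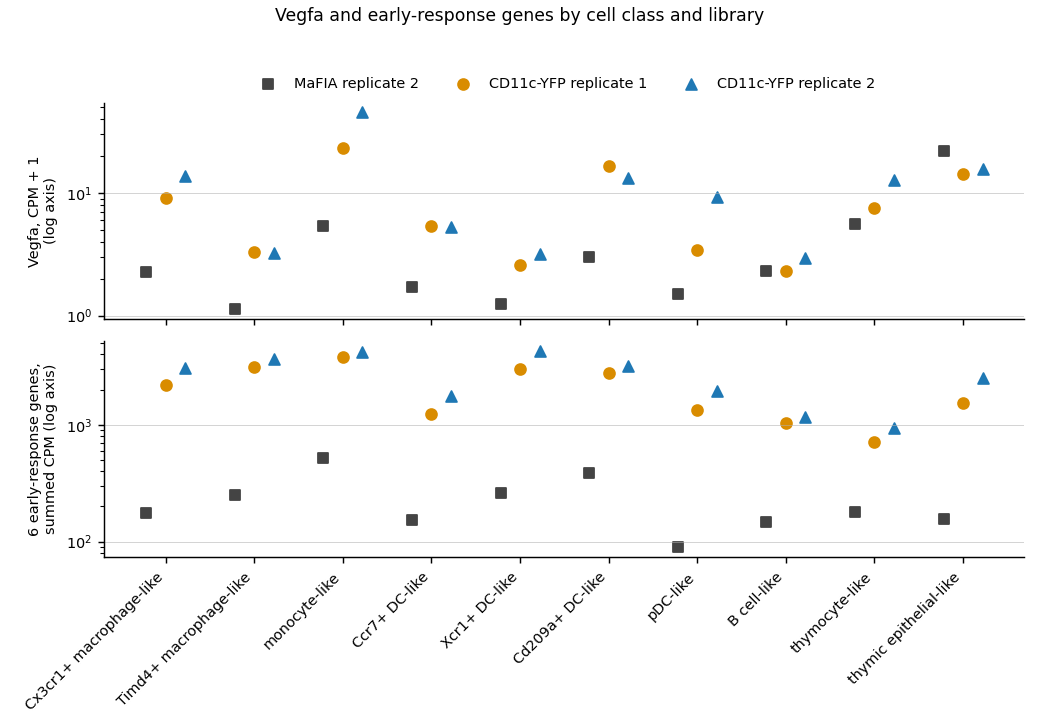
Vegfa (upper panel, CPM + 1) and the summed level of 6 early-response genes (lower panel, CPM) in 10 cell classes, 1 point for each of 3 libraries, on log axes. MaFIA replicate 2 lies below both CD11c-YFP libraries in every class of the lower panel and in 8 of 10 classes of the upper panel.

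Whether these contrasts differed between MaFIA and CD11c-YFP was tested as an interaction, with 1 MaFIA library against 2 CD11c-YFP libraries. Reporter, age and sex cannot be told apart in it. None of the 6 genes passed an adjusted p of 0.05 in any of the 3 contrasts, where 0.0156%, 0% and 0.0778% of all genes did, and 4 single values fell under an unadjusted 0.05 besides Pdgfb below. The largest was that of Igf1 in Timd4+ macrophages over monocytes, with a log2 fold change lower by 0.95 in MaFIA than in CD11c-YFP (SE 0.21, adjusted p = 0.24, edgeR). Without the low-count filter this difference passed (-0.94, adjusted p = 0.0018). Pdgfb differed by -0.55 for Cx3cr1+ over Timd4+ macrophages (SE 0.23, adjusted p = 0.98). The 1 MaFIA library gives no spread of its own and is assumed to vary like the others.

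Pdgfra, the alpha receptor and a marker of fibroblasts, was found among the named classes almost only in fibroblast-like cells. These held 7, 436 and 341 Pdgfra UMIs in the 3 libraries, or 92.2, 496 and 676 CPM. All other named cells together, 22888 of them, held 18 UMIs. Unnamed cells held more: the cluster of 37 cells led by Pth and Chga had 197 UMIs (334.9 CPM), and a cluster of 10 cells led by Fabp4 and Ly6c1 had 17 (128 CPM). Timd4+ macrophages, monocytes, pDCs and thymocytes had 0 UMIs, which in Timd4+ macrophages allows at most 0.383, 0.688 and 0.9503 CPM (3 counts a library), and thymic epithelial-like cells had 0, 6.62 and 2.42 CPM. The class-against-rest fit passed (adjusted p = 8.3e-20 with edgeR), but since classes were cut from other genes of the same cells its p describes only how steady the difference was over libraries.

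Pdgfrb, the beta receptor of pericytes and fibroblasts, was high in fibroblast-like cells at 79.1, 130 and 170.4 CPM, from 6, 114 and 86 UMIs. Their level was 129 times that of all other named cells when pooled (95% interval 109 to 153, counting error only), while the unnamed cluster led by Pth and Chga held 110.5 CPM and that led by Fabp4 and Ly6c1 75.4 CPM. For the class, the fitted difference was 8.17 on the log2 scale (SE 0.46, adjusted p = 1.5e-14). Thymocytes came at 43.3, 6.52 and 6.17 CPM, with MaFIA replicate 2 well above the others. Thymic epithelial-like cells, at 0, 66.2 and 12.1 CPM, overlapped with thymocytes. Every other named class averaged 0.889 CPM or less.

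Thymocyte Pdgfrb sat in 1 of the 2 thymocyte clusters. The cluster led by Dntt, Trgc1 and Arpp21, of which Dntt adds bases to rearranging receptor genes in immature thymocytes, had 57.4, 18.6 and 13.5 CPM, against 0.634, 0.500 and 0 CPM in the other cluster. The clusters did not overlap, and the thymocyte class passed the test against the other classes (log2 fold change 3.73, SE 0.40, adjusted p = 6.3e-09, edgeR, where 53.1% of all genes passed). Of 1198 thymocytes, 175 had a Pdgfrb UMI and 0 had a Pdgfra UMI. In MaFIA replicate 2 thymocytes supplied 80.1% of the Pdgfrb UMIs of named cells, while fibroblast-like cells supplied 59.7% and 61.9% in the CD11c-YFP libraries. The cluster led by Dntt was 227 of 379 thymocytes in MaFIA replicate 2, 108 of 512 in CD11c-YFP replicate 1 and 109 of 307 in replicate 2. Class levels and UMI shares of thymocytes therefore also reflect this makeup.

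Within fibroblast-like cells the receptors were mostly in the same cells. With all UMIs, 75 of 95 cells had both, 11 had Pdgfra alone, 3 had Pdgfrb alone and 6 had neither. At 3000 UMIs the counts were 27, 46, 5 and 17, so the joint share depends on depth. The 3 fibroblast-like clusters of 52, 29 and 14 cells all carried both. In CD11c-YFP replicates 1 and 2 they held 719 and 792, 293 and 466, and 255 and 791 CPM of Pdgfra. Their Pdgfrb levels were 131 and 188, 85.7 and 139, and 299.9 and 189 CPM. The cluster of 29 cells had the lowest receptor levels in replicate 2 and also the most leukocyte RNA, 2794 CPM of 7 pan-leukocyte genes against 222 and 641 CPM in the clusters of 52 and 14 cells. Its part in the receptor levels was not tested, and without that cluster Pdgfrb averaged 179 CPM in the class, against 126 with it. That mean weighs the 3 libraries alike, and MaFIA replicate 2 had only 2 cells left in it.

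**Figure D5:**
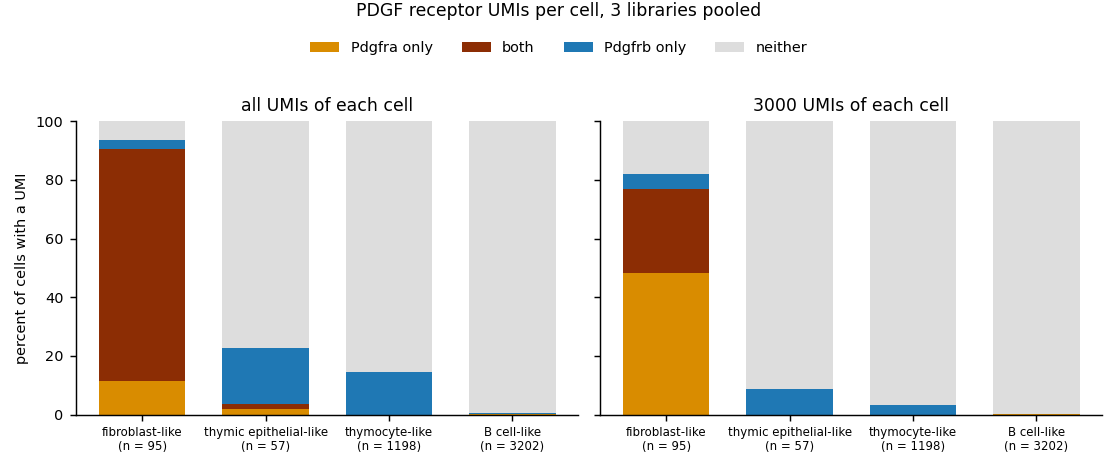
Percent of cells with Pdgfra alone, both receptors, Pdgfrb alone or neither, with all UMIs (left) and at 3000 UMIs per cell (right), in 4 classes pooled over 3 libraries. Fibroblast-like cells carry mostly both receptors with all UMIs (75 of 95 cells), whereas thymocytes show Pdgfrb without Pdgfra.

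Dcn, Col1a1, Col1a2, Col3a1 and Lum gave these cells their name, so their being highest here is no check of the label. They had 3532, 24326 and 21398 CPM summed, the low value being that of the 6 cells of MaFIA replicate 2. Markers of other cell types were read beside them. The 7 pan-leukocyte genes summed to 6576, 1041 and 1026 CPM, so the MaFIA cells carried the RNA level of leukocytes and their values are the least secure. Of mural genes, Des had 772 UMIs over all 95 cells, Notch3 63 and Tagln 39. Cspg4, Myh11, Acta2 and Mcam were near the floor with 9, 7, 6 and 4 UMIs, and Rgs5, a defining pericyte gene, was at 0. Of endothelial genes Cdh5, Egfl7 and Tie1 were at 0 while Plvap, a gene of vessel diaphragms, stood at 119 CPM from 173 UMIs. Against the mean of the other classes, which is a mean of fitted log levels, 7 of 8 mural genes rose and 0 fell (median log2 fold change 4.13), 1 of 6 tested endothelial genes rose (Plvap, by 8.70) and 2 fell (-3.19), and 0 of 7 pan-leukocyte genes rose and 7 fell (-2.56), where the median of all genes was -0.25 and 32.7% of all genes passed in either direction. The Venus reporter stood at 0, 167 and 19.8 CPM and EGFP at 0, so how these cells passed the sort cannot be told from the counts.

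Fibroblast-like cells also held RNA of ligand genes. The first of each 3 values below rests on the 6 cells of MaFIA replicate 2 and on few UMIs. Igf1 stood at 13.2, 94.5 and 210.1 CPM, below both macrophage populations in each library, and was above the mean of the log levels of the other classes (log2 fold change 3.02, SE 0.22, adjusted p = 5.6e-12). It was also below thymic epithelial-like cells in each library. Vegfa, at 92.2, 35.3 and 29.7 CPM from 7, 31 and 15 UMIs, overlapped with monocytes and was above the mean of the log levels of the other classes (2.16, SE 0.50, adjusted p = 0.0010, a call lost without CD11c-YFP replicate 1 at 1.62 and adjusted p = 0.22). Pdgfb had 3 UMIs in all 95 cells, a pooled ratio to all other named cells of 0.0942 (95% interval 0.0194 to 0.275). Pdgfa, at 13.2, 20.5 and 23.8 CPM, and Vegfb, at 26.4, 31.9 and 17.8 CPM, did not pass in either direction (-0.17, SE 0.45, adjusted p = 0.92, and 0.05, SE 0.29, adjusted p = 1.0). Pdgfc had 5 UMIs, all in 1 cell. With the receptors, 5 of 8 genes passed, where 32.7% of all genes did.

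Each of the other classes was set against the mean of the rest in the same fit, again as a description of steadiness over libraries. Higher and lower here are relative to the mean of log levels, so a class can be higher while several classes have larger levels. Of the 8 genes, 5 passed in Cx3cr1+ macrophages (all genes 38.8%), 6 in Timd4+ macrophages (44.4%) and 4 in monocytes (33.7%), where Pdgfb was higher in all 3 classes (3.20, SE 0.13, 3.06, SE 0.14, and 3.02, SE 0.14, on the log2 scale). In DCs, 6 passed in Ccr7+ cells (52.9%), 5 in Xcr1+ cells (48.4%), 5 in Cd209a+ cells (34.9%) and 2 in pDCs (39.0%). Igf1 was lower in all 4 of these classes, by 2.41, 3.36, 3.59 and 2.94 on the log2 scale, and Pdgfa was higher in Ccr7+ DCs (1.44, SE 0.17, adjusted p = 3.3e-08), whose mean of 41.0 CPM was below those of 4 classes, and lower in Xcr1+ and Cd209a+ DCs (-1.50 and -0.85). Vegfa in Cd209a+ DCs (0.94, SE 0.27, adjusted p = 0.0074) no longer passed under DESeq2 (0.79, adjusted p = 0.095) or without CD11c-YFP replicate 1 (0.58, adjusted p = 0.35) or replicate 2 (1.02, adjusted p = 0.075). All 5 calls in B cells were lower (49.2%), and in thymocytes 4 of 5 were lower (53.1%), the exception being Pdgfrb. The percentages are the shares of all genes that passed in either direction.

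Thymic epithelial-like cells showed an uneven pattern. Of the 8 genes, 5 passed there: Igf1, Pdgfa, Pdgfb, Pdgfra and Pdgfrb. The call of Pdgfra rested on 3 UMIs in the whole class, and that of Pdgfrb on 0, 20 and 5 UMIs. Igf1 stood at 533, 517 and 415 CPM, higher than the mean of the other classes (log2 fold change 4.57, SE 0.15, adjusted p = 2.2e-19, edgeR, where 45.9% of all genes passed), but 72.2%, 95.5% and 74.3% of its UMIs came from the top 3 cells of 19, 16 and 22. Pdgfa also passed (2.84, SE 0.25, adjusted p = 2.2e-10). At 10 or more UMIs, 14 of the 57 cells had Igf1, 5 had Pdgfa and 1 had both. These cells also held 565, 374 and 996 CPM of the neutrophil genes S100a8 and S100a9 and 312 CPM of the pericyte gene Rgs5 when pooled, and the part of other cells in these values was not tested.

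Receptors and regulators of the same pathways were read from fixed lists. In fibroblast-like cells 9 of 13 tested IGF pathway genes rose and 0 fell against the mean of the other classes, with a median log2 fold change of 5.69, against -0.25 over all genes, of which 32.7% passed. Igf1r, the receptor of IGF1, was at 100.6 ± 23.1 CPM in fibroblast-like cells (SD, n = 2) and at 15.4 ± 1.23 and 37.3 ± 11.1 CPM in Cx3cr1+ and Timd4+ macrophages (n = 3). The IGF binding protein gene Igfbp7 stood at 3057 ± 66.6 CPM there. Between the macrophages, Igf2r, Insr and Igf1r were 3 of 5 tested genes and all fell in Cx3cr1+ relative to Timd4+ macrophages (by 2.17, 1.29 and 1.08 on the log2 scale), where the list's median was -1.08 and that of all genes -0.01, with 38.9% of all genes passing. Timd4+ macrophages, the population with more Igf1, had more of these receptor genes in all 3 libraries.

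Of the PDGF pathway list, 3 of 9 tested genes rose and 4 fell in fibroblast-like cells (median 0.28, all genes -0.25, 32.7% of all genes passing). Plat, a protease gene known for activating PDGF-CC, stood at 377 ± 13.3 CPM in fibroblast-like cells (SD, n = 2), with 0.579 ± 0.727 and 0.106 ± 0.183 CPM in Cx3cr1+ and Timd4+ macrophages (n = 3). Nrp1, a co-receptor of VEGF-A, stood at 478 ± 24.4 CPM there, against 75.7 ± 10.8 and 92.1 ± 18.6 CPM in the macrophages. Between Cx3cr1+ and Timd4+ macrophages 0 of 8 tested genes of this list rose and 1 fell, the phosphatase gene Ptprj (-0.79, median -0.06, all genes -0.01, 38.9% of all genes passing). Against monocytes, 2 rose and 2 fell in Cx3cr1+ macrophages (median 0.00, all genes 0.00) and 3 rose and 2 fell in Timd4+ macrophages (median 0.09, all genes 0.01), with Pdgfrl, a receptor-like gene, higher in both (4.09 and 3.58), where 37.5% and 54.0% of all genes passed.

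The VEGF receptor genes Kdr and Flt1, known chiefly from endothelial cells, were found in the myeloid cells. Kdr stood at 38.6 ± 15.9 CPM in Cx3cr1+ macrophages and 7.73 ± 6.27 CPM in Timd4+ macrophages, with 75.5 ± 43.1 CPM in monocytes (SD, n = 3). Flt1 stood at 6.39 ± 4.64, 2.39 ± 2.66 and 39.7 ± 25.2 CPM in the same order. Like Vegfa, both rose in Cx3cr1+ over Timd4+ macrophages (2.48, SE 0.20, and 1.45, SE 0.34, adjusted p = 2.7e-05 and 0.0087) and fell in Cx3cr1+ macrophages relative to monocytes (by 1.02 and 2.84). Of the 5 VEGF pathway genes tested, 2 rose and 0 fell in the first comparison (median 0.45), 2 rose and 2 fell in the second (median -0.08), and 1 rose and 2 fell in Timd4+ macrophages over monocytes (median 0.10), where all genes had medians of -0.01, 0.00 and 0.01 and 38.9%, 37.5% and 54.0% of them passed. In fibroblast-like cells 5 of 10 rose, Vegfc among them, and 1 fell (median 1.177, all genes -0.25, 32.7% of all genes passing).

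The hypoxia response list, which holds regulators of the response as well as genes that low oxygen is known to raise, moved both ways. Of 13 tested, 5 rose and 2 fell in Cx3cr1+ over Timd4+ macrophages (median 0.26), 3 rose and 4 fell in Cx3cr1+ macrophages over monocytes (median -0.02), and 3 rose and 5 fell in Timd4+ macrophages over monocytes (median -0.30). All genes had medians of -0.01, 0.00 and 0.01 in these comparisons, and 38.9%, 37.5% and 54.0% of them passed. The hypoxia-responsive gene Ndrg1 went the same way as Vegfa in all 3 (1.27, -1.22 and -2.49), while P4ha1, a collagen hydroxylase gene, ran against it (-1.36, 0.81 and 2.16). Of other growth factor genes, Kitl (stem cell factor) stood at 1.27 ± 0.571 CPM in Cx3cr1+ macrophages, against 26.8 ± 8.31 CPM in Timd4+ macrophages (-4.19). Tgfa, an EGF receptor ligand gene, also fell in Cx3cr1+ relative to Timd4+ macrophages (by 2.68), while Nrg1 (neuregulin) rose (2.99, SE 0.58, adjusted p = 0.0034). Both genes were low, with an average log2 CPM of 0.19 for Tgfa and 1.80 for Nrg1 in this fit. Hbegf, another EGF receptor ligand gene, was among the largest changes of Timd4+ macrophages over monocytes (3.05) and stood at 20.1 ± 12.9 CPM in Cx3cr1+ macrophages, against 77.7 ± 28.1 CPM in Timd4+ macrophages. That list had 5 genes up and 5 down of 12 in Cx3cr1+ over Timd4+ macrophages (median -0.49, 38.9% of all genes passing), and 15 up and 0 down of 24 in fibroblast-like cells (median 3.96, all genes -0.25, 32.7% of all genes passing), Fgf10 at 30.9 ± 6.72 CPM among them.

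Likeness of pattern was measured as the correlation of log2 levels over 32 sums of library and class, a description in which points share libraries. Among 14556 genes searched, the nearest to Pdgfa were Src (r = 0.894), Zfp467 (0.894) and Rnf180 (0.890). Pdgfc was nearest to Adamdec1 (0.954), Snx13 (0.948) and the iron exporter gene Slc40a1 (0.945), which was also a naming marker of Timd4+ macrophages. Igf1 was nearest to Epb41l3 (0.961), Marchf8 (0.960) and Tjp1 (0.9502). Pdgfb was nearest to Metrnl (0.898), Vegfb to Tanc2 (0.861), and Vegfa, with the loosest partner, to Arl5b (0.756).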

How the data were processed

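Droplet libraries (10x 3' chemistry) of sorted thymic cells were deposited as whole-number UMI counts per gene and cell, made by the authors with Cell Ranger and, per the submitters' processing notes, bcl2fastq 2.20 and STAR 2.7.9a. The notes name GRCm39 (mm39). Cells with 1000 to 7000 genes and at most 10% mitochondrial UMIs were kept, giving 122222920, 136669371 and 182740471 UMIs in MaFIA replicate 2, CD11c-YFP replicate 1 and CD11c-YFP replicate 2 and 26787417 in MaFIA replicate 1. Clusters (Leiden resolution 1.0, 2000 variable genes, 70 components, leidenalg 0.10.2) were made without 96 genes, the 8 described and their lists, and named from marker lists, except that a cluster led by Pth and Chga stayed unnamed by a rule added after the clusters were seen. Likely doublets by simulated score stayed in and were removed as an alternative (309, 468 and 750 cells).

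UMIs were summed per library and class (at least 10 cells) and tested in edgeR 4.0.16 (R 4.3.3) by the quasi-likelihood F test with TMM scaling, a low-count filter and Benjamini-Hochberg adjustment over all genes tested (12855 for macrophages and monocytes, 18710 for all classes). The library was a block, since all sums of 1 library share its animals: deviations of sums of the same library correlated between 0.21 and 0.66 (9 pairs), those of different libraries between -0.53 and 0.25 (18 pairs). DESeq2 1.42.0 was an alternative. Shares used cells thinned to 3000 UMIs; intervals (exact, 95%) and floors (3 counts) cover counting error only, and PCR copies were collapsed by UMI. The genes and lists were chosen with earlier results of these data known. From each list, up to 3 genes with the largest passing fold change and the same sign in every library were named per comparison, with the 3 most alike genes per member. Igf1r and Nrp1 levels are also given outside the comparison that named them. Promoters are from RefSeq, found for 6 of the 8 genes. The fits were tested on simulated data.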

Additional observations from a re-analysis of the deposited data

Results flagged for a closer look

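MaFIA replicate 1, whose cells were shallow, entered only an alternative clustering and the fits made from it. Over the whole library it still carried signal of 7 of the 8 genes. Its levels were 44.2 CPM for Pdgfa, 25.3 for Pdgfb, 12.1 for Pdgfc, 1.53 for Pdgfrb, 1.38 for Vegfa, 24.0 for Vegfb and 117 for Igf1, and Pdgfra had 0 UMIs, which allows at most 0.138 CPM (95% interval, counting error only). MaFIA replicate 2 had 48.8, 19.4, 10.9, 2.82, 1.42, 24.7 and 117 CPM for the same 7 genes. Igf1 was thus at 117 CPM in both MaFIA libraries, against 66.7 and 55.4 CPM in the CD11c-YFP libraries, and Vegfa at 1.38 and 1.42 CPM, against 7.43 and 6.48 CPM. Reporter, age and sex cannot be told apart in these values, and macrophage shares also differ between libraries. In the clustering that included MaFIA replicate 1, 5362 of its 5493 cells stayed unnamed. Of these, 5280 lay in a cluster led by the neutrophil genes S100a8 and S100a9. Only 17 of its cells were named Cx3cr1+ macrophages and 7 Timd4+ macrophages, so its levels were not read by class.

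An unnamed cluster of 37 cells led by Pth and Chga, genes of parathyroid and neuroendocrine cells, held Vegfa at 81.6 CPM, above every named class mean. It also held Pdgfra at 334.9 and Pdgfrb at 110.5 CPM, the fibroblast genes Dcn and Col3a1 were among its leading genes, and it scored best as fibroblast. Whether it holds fibroblasts, other cells or both was not tested. An unnamed cluster of 10 cells led by Fabp4 and Ly6c1 held Pdgfb at 120.6 CPM from 16 UMIs, also above every named class mean.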

How the results depend on the processing

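Over the alternatives for single genes of the 8, 1418 results stayed on the same side of the threshold, 41 passed only under the alternative and 43 no longer passed. A gene that passed under either setting changed sign 0 times. Values that did not pass could change sign, as for Pdgfb in Cx3cr1+ over Timd4+ macrophages (-0.08 to 0.26) and, in fibroblast-like cells, Pdgfa (-0.37 to 0.32) and Vegfb (-0.77 to 0.44). Of the 6 genes tested between macrophages and monocytes, 5, 5 and 4 passed in the 3 comparisons, against 4, 4 and 4 with no replicate block. With no block, all genes called fell to 3264, 2723 and 5391, against 5005, 4823 and 6937 with it. Leaving out 1 library gave 3154 to 4178, 2522 to 3905 and 5040 to 6046 calls, and 3638 to 5961 in fibroblast-like cells, against 6122 with all libraries, each time lowest without CD11c-YFP replicate 1. The difference between MaFIA and CD11c-YFP for Igf1 in Timd4+ macrophages over monocytes was -0.94 without the low-count filter, against -0.95 with it. Pdgfb in fibroblast-like cells no longer passed at resolution 0.5 (-0.60, adjusted p = 0.39), where the list genes Pecam1 and Kdr reversed to 2.16 and 0.97.

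Shares depend on depth. At 5000 UMIs and without thinning they were 52.7% and 83.9% for Pdgfa in Cx3cr1+ macrophages, and in Timd4+ macrophages 32.2% and 61.1% for Pdgfb, 43.9% and 74.2% for Pdgfc, 29.8% and 60.03% for Vegfb and 94.9% and 99.6% for Igf1. In fibroblast-like cells they were 46.5% and 68.2% for Pdgfrb and 20.2% and 41.6% for Vegfa. Levels in Timd4+ macrophages moved at resolution 2.0 and without likely doublets to 93.5 and 94.2 CPM for Pdgfb and to 1010.1 and 1077 CPM for Igf1. Removing the leukocyte-rich fibroblast-like cluster, an alternative chosen after seeing the data, gave 179 CPM of Pdgfrb, with only 2 cells left in MaFIA replicate 2. The causes were not tested.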
